A study of Mus musculus with 24 samples.

Results

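Csf1r, Adgre1, Cd68, Itgam, Cx3cr1, Ccr2, Lyz2, Trem2, Tyrobp and Ms4a7 are 10 genes commonly used to recognise monocytes and macrophages, and they were taken by symbol from the 52976 symbols of the deposited count tables. They were followed through 18 libraries of mouse wound tissue and 6 libraries of RAW264.7, an established mouse macrophage line, to set tissue, where cell number can change, beside a culture of 1 cell line. The wound libraries formed 6 groups of 3. Control wounds of diabetic mice were collected at day 1, day 7 and day 14, and wounds of diabetic mice dressed with the hydrogel Fmoc-KYF-AgNCs-3S1C-Hyd2, a peptide gel with silver nanoclusters and a hydrogenase, at the same days. The strain, age and way of inducing diabetes are not in the labels, all groups are diabetic, and no unwounded skin was analysed here. RAW264.7 cells formed 2 groups of 3, without and with hydrogel. The titles of the hydrogel wound libraries read TEOA, and those of the cells H2 with hydrogel and Without_H2 without. These title terms are not explained here. The controls' label names lipopolysaccharide (LPS), a bacterial activator of macrophages; the treated cells' labels name only the gel, with a different Hyd suffix in each library, while the design text puts LPS in both arms, so the groups may differ in more than the gel. No cells without LPS were analysed here. The labels do not say whether the 3 libraries of a group came from separate animals or cultures, so p-values measure only the spread between libraries.

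Monocytes leave the blood through the chemokine receptor CCR2 and become macrophages in a wound, where they clear debris and dead cells and later take part in repair. CSF1R is the receptor for the growth factors CSF1 and IL-34, on which most macrophages depend. TYROBP (DAP12) is a membrane adaptor that passes signals from receptors such as TREM2, a lipid-sensing receptor, to the kinase SYK. CX3CR1 is the receptor for fractalkine and marks patrolling monocytes and many tissue macrophages. ADGRE1 (F4/80) is an adhesion receptor of mouse macrophages, and ITGAM (CD11b) is an integrin chain that neutrophils also carry. CD68 is a glycoprotein of lysosomes, LYZ2 the secreted lysozyme of myeloid cells, and MS4A7 a membrane protein of macrophages. In the files' build (GRCm38), Cx3cr1 (119901616-120069879, minus strand) and Ccr2 (124101950-124113557, plus) lie on chromosome 9, Trem2 (48346401-48352273, plus) and Adgre1 (57358691-57483527, plus) on chromosome 17, and Tyrobp (30413760-30417585, plus) and Itgam (128062640-128118491, plus) on chromosome 7. Cd68 (69664213-69666153, minus) is on chromosome 11, Lyz2 (117277331-117282321, minus) on 10 and Ms4a7 (11321039-11336146, minus) on 19. Counts are over the exons of each.

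Because these genes moved together at day 7, their promoters were searched for a shared short motif. The RefSeq promoter table (GRCm38.p6, the build of the files) matched 7 of the 10 genes, with 2 entries for Ms4a7. In the 250 bases before each start site, GAGGAA, the core bound by the myeloid factor PU.1, was looked for on both strands, where it reads TTCCTC on the opposite one. It stood in the promoters of 3 of the 7 genes and in 23.3% of all 32851 promoters of that length. These 3 are shown because they carry the motif, and because Cd68 and Trem2 were the pair with the least alike levels over the wound libraries; capitals mark GAGGAA or TTCCTC.
Cd68, chr11:69666171-69666420, minus strand: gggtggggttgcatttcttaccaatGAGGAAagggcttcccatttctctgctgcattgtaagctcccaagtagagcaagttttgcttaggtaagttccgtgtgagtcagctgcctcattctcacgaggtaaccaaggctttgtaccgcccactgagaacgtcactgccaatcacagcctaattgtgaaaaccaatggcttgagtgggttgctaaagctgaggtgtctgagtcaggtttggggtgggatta
Itgam, chr7:128062390-128062639, plus strand: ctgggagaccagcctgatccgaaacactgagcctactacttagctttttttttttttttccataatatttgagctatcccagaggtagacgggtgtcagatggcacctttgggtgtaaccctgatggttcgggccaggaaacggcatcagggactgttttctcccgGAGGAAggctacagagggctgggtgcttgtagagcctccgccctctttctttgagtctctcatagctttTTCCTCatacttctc
Trem2, chr17:48346151-48346400, plus strand: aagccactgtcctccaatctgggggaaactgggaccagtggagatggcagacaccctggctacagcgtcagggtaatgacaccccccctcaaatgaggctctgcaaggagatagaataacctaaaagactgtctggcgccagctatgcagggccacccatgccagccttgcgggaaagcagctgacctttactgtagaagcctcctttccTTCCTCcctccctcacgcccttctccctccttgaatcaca

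The motif began 225 bases before the start of Cd68, 84 and 15 bases before that of Itgam and 40 bases before that of Trem2. The AP-1 motif TGANTCA was found in the same window of Cd68, Trem2 and Ms4a7, against 6.75% of all promoters, and TATAAA in none of the 7 genes, against 12.4%. A match is a stretch of letters, not a site at which binding was measured.

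Wound libraries held between 12.4 M and 27.1 M counted read pairs and cell libraries between 17.9 M and 24.0 M. All 10 genes passed the filter on low counts in wounds. Ms4a7 did not in RAW264.7, where each group held 1 read pair of it in all. Levels are given as CPM, counts per M counts of the library after scaling of the library sizes, and comparisons between genes as TPM, which also divides by exon length. Control day 1 replicate 1 stood apart from its 2 partners, with more adipocyte RNA (summed CPM of 7 marker genes 55373 against 8968 and 4130) and less skeletal muscle RNA (8 genes, 6493 against 214745 and 126819). Control day 14 replicate 1 had the highest fibroblast sum of its group, 47273 against 18176 and 10566. The 3 libraries of control day 7 differed by little more than counting error (median chi-square per gene 0.643 to 0.777 between pairs, against 5.82 to 26.0 in control day 1 and day 14), so their small spread may be technical. Hydrogel day 7 pairs were also close, at 1.22 to 2.06, against 6.04 to 20.9 in hydrogel day 1 and 1.62 to 4.39 in hydrogel day 14. The spread of both day 7 groups may thus understate that between animals, which was not tested.

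In control wounds, 8 of the 10 genes rose from day 1 to day 7 (median log2 fold change 2.91, against -0.05 over all genes tested), where 15% of all genes tested rose. Ms4a7 rose most, from 4.08, 0.682 and 0.444 CPM at day 1 to 46.3, 46.1 and 46.9 CPM at day 7, a difference of 4.74 ± 0.78 (log2, with its SE; adjusted p = 0.000782). Ccr2 went from 6.79, 0.758 and 0.887 CPM to 51.8, 54.1 and 49.2 CPM (4.19 ± 0.75, adjusted p = 0.00131). In both genes, every day 7 library lay above every day 1 library, and the highest day 1 value was that of replicate 1. The day 1 values rest on 60, 9 and 7 read pairs of Ms4a7 and on 100, 10 and 14 of Ccr2. The rise was 3.81 ± 0.58 for Cx3cr1, 3.23 ± 0.56 for Csf1r, and between 2.64 ± 0.77 and 2.91 ± 0.81 for Lyz2, Trem2, Tyrobp and Adgre1 on the log2 scale. Itgam (0.64 ± 0.70, adjusted p = 0.502) and Cd68 (-0.72 ± 0.41, adjusted p = 0.188) did not pass. The control groups fitted alone gave 5 calls in place of 8, and leaving out control day 1 replicate 2 or replicate 3 also gave 5.

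At day 14, control wounds differed widely among themselves. Csf1r stood at 267, 81.2 and 30.5 CPM and Lyz2 at 2659, 1174 and 331 CPM, with replicate 1 highest in all 10 genes. Against day 1, 6 genes rose (16.7% of all genes tested did), namely Csf1r, Cx3cr1, Ccr2, Lyz2, Tyrobp and Ms4a7. Fitted on the control groups of days 1 and 14 alone, none of the 6 kept its call, and without control day 1 replicate 1 all 10 passed, 9 higher and Cd68 lower. Between days 14 and 7, none of the 10 passed in edgeR, none had an unadjusted p under 0.05, and the share over all genes was 12.2% (5.87% lower); limma-voom with quality weights called 9 of them lower at day 14, DESeq2 none. Without control day 14 replicate 1, 4 of the 10 were lower at day 14. The shares over all genes are those of the main edgeR fit and not of these alternatives.

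**Figure D1:**
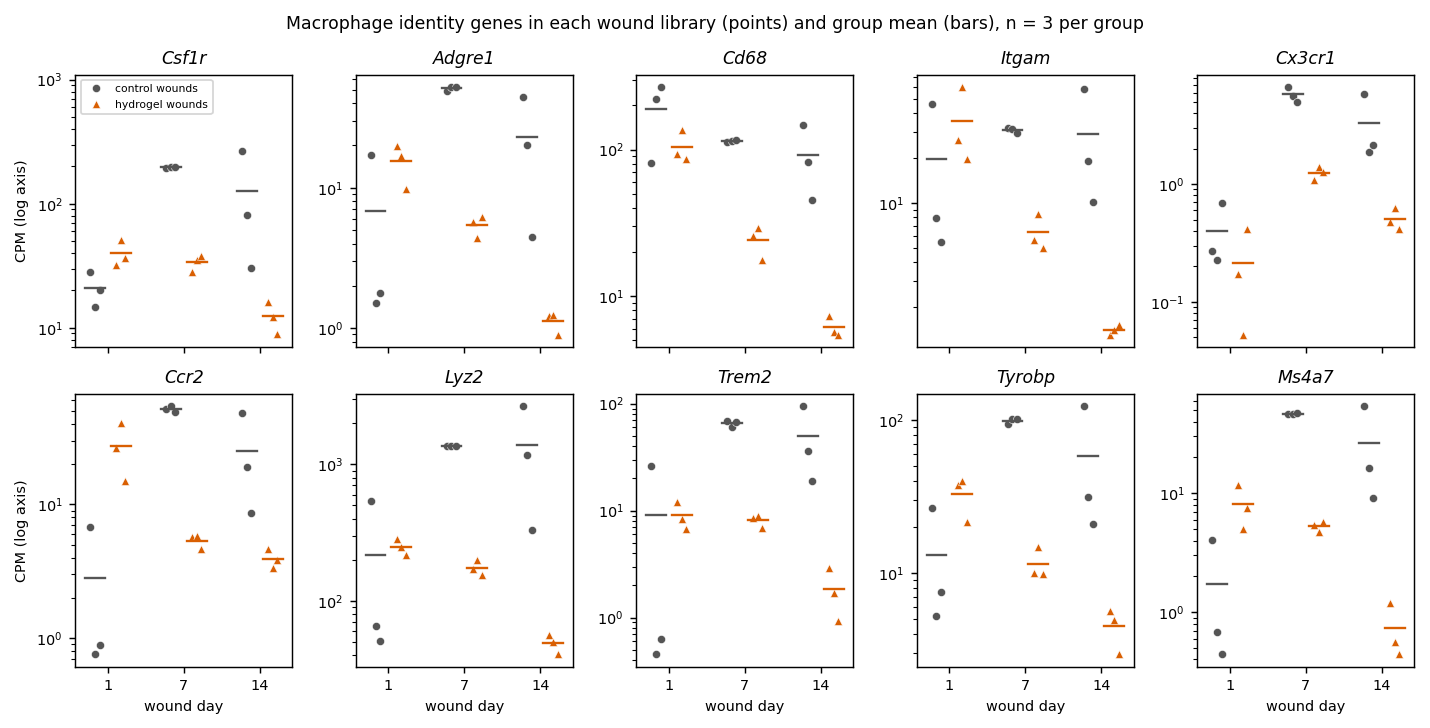
Level of each gene in every wound library, in CPM on a log axis, by wound day, for control (grey circles) and hydrogel wounds (orange triangles), with bars at the group means (n = 3). Every control library lies above every hydrogel library at days 7 and 14 in all 10 genes, and Cd68 is highest in 2 control libraries of day 1.

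At day 1, hydrogel wounds had more Ccr2 than control wounds, and no other gene of the 10 passed (7.55% of all genes tested passed, 4.53% higher). Ccr2 stood at 26.6, 40.7 and 15.01 CPM with hydrogel and at 6.79, 0.758 and 0.887 CPM without, which differed by 3.28 ± 0.72 on the log2 scale (adjusted p = 0.0169). All 3 hydrogel libraries lay above all 3 controls, whose values rest on 100, 10 and 14 read pairs. Ms4a7 was at 11.7, 4.997 and 7.45 CPM against 4.08, 0.682 and 0.444 CPM, also without overlap (2.2 ± 0.72, adjusted p = 0.0714). Csf1r did not overlap either, at 32.2, 51.0 and 36.3 CPM against 28.3, 14.7 and 20.2 CPM (0.92 ± 0.52, adjusted p = 0.276). So 3 of 10 genes did not overlap, against 17.1% of all genes tested. The median of the 10 log2 differences was 0.88, against 0.04 over all genes.

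The day 1 count rested on control replicate 1. In that library Trem2 stood at 26.1 CPM against 0.455 and 0.634 CPM in its partners, and hydrogel wounds had 12.03, 8.31 and 6.78 CPM, so the fitted difference was -0.01 ± 0.96. Lyz2 was at 534 CPM there, against 65.8 and 51.1 CPM, with 284, 248 and 217 CPM in hydrogel wounds. Without that library 8 of the 10 genes passed, 7 higher with hydrogel and Cd68 lower: Ccr2 by 5.05, Trem2 by 4.02, Ms4a7 by 3.83, Adgre1 by 3.22, Itgam by 2.42, Tyrobp by 2.36, Lyz2 by 2.10 and Cd68 by -1.22 on the log2 scale. The share of all genes that passed without that library is not given here, so the 8 have no such share beside them. With the day 1 groups alone in the fit, Ccr2 kept a log2 fold change of 3.21 and had an adjusted p of 0.356. With the day 7 libraries summed within each group it was 3.27 with an adjusted p of 0.12, and without a filter on low counts the smallest adjusted p of the 10 was 0.0515.

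Cd68 did not pass at day 1 (-0.86 ± 0.41, adjusted p = 0.2), and neither did the other 2 genes with a fitted difference below 0, Cx3cr1 (-0.88 ± 0.67, adjusted p = 0.431) and Trem2. Control libraries held 81.2, 220 and 268 CPM of Cd68, lowest in replicate 1, where the other genes except Cx3cr1 were highest. Relative to the mean log2 level of the other 9 genes, Cd68 stood at 2.30 in replicate 1 and at 6.33 and 6.43 in replicates 2 and 3, and at 0.67 to 0.77 in control wounds at day 7. Replicates 2 and 3 were also the libraries with the high skeletal muscle sums given above; the part of muscle in the Cd68 counts was not tested. In RAW264.7, where Acta1, Myh4 and Myh1 were at 0 in all libraries, the relative level was 2.99 to 3.22. There Ms4a7 was left out of the mean, so this value and those of the wounds rest on unlike sets of genes. Cd68 was the gene least like the others over the 18 wound libraries (root mean square difference 1.69 from the mean of the other 9, on centred log2 CPM), and Tyrobp the most like them (0.294).

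At day 7, all 10 genes were lower in hydrogel wounds (median log2 fold change -2.99, against 0.01 over all genes), where 11.7% of all genes tested were lower. Here, as in every bulk comparison, fewer cells of a type and less RNA per cell cannot be told apart. The growth factor receptor gene Csf1r was at 28.4, 35.1 and 37.6 CPM with hydrogel against 195, 198 and 198 CPM in controls, which was 5.85-fold lower (log2 -2.55 ± 0.54, adjusted p = 0.00582). The chemokine receptor gene Ccr2, higher at day 1, was now at 5.67, 5.77 and 4.61 CPM against 51.8, 54.1 and 49.2 CPM (-3.27 ± 0.71, adjusted p = 0.00646). Cx3cr1, the last of the 10 by TPM in every wound group, was at 1.08, 1.40 and 1.27 CPM against 6.69, 5.62 and 5.03 CPM (-2.20 ± 0.52, adjusted p = 0.00937). No hydrogel library reached any control library in these 3 genes.

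The signalling pair fell alike at day 7. Trem2 stood at 8.61, 8.85 and 6.81 CPM against 68.4, 60.3 and 67.9 CPM (-3.02 ± 1.02, adjusted p = 0.0464), and Tyrobp at 9.98, 14.9 and 9.89 CPM against 93.8, 101 and 101 CPM (-3.09 ± 0.65, adjusted p = 0.00542). Both had the hydrogel group wholly below the control group. Among surface and lysosomal genes, Adgre1 was at 5.74, 4.37 and 6.15 CPM against 49.2, 52.3 and 52.3 CPM (-3.24 ± 0.82). Lyz2, the most abundant member, was at 171, 198 and 153 CPM against 1355, 1352 and 1365 CPM (-2.96 ± 0.78). Its close copy Lyz1 shares sequence with it, so read pairs common to both were not counted; Lyz1 changed by -2.62 ± 0.66 (adjusted p = 0.013). Ms4a7 changed by -3.14 ± 0.71, Itgam by -2.28 ± 0.73 and Cd68 by -2.25 ± 0.43, and all 10 genes had groups without overlap, as had 70.2% of all genes. With the libraries of day 7 summed to 1 per group none of the 10 passed (smallest adjusted p 0.701), at a median log2 fold change of -2.99. Without hydrogel day 7 replicate 1 or replicate 2, 6 of the 10 passed. Trem2 (adjusted p from 0.0879 to 0.136) and Itgam (0.0771 to 0.122) did not pass with any single day 7 library left out. Without a filter on low counts they did not pass either (0.132 and 0.105).

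At day 14, all 10 genes were again lower in hydrogel wounds (median -4.12, against 0.03 over all genes), where 10.3% of all genes tested were lower. Ms4a7 was at 1.18, 0.561 and 0.449 CPM against 53.7, 16.3 and 9.21 CPM, a log2 difference of -5.17 ± 0.80 (adjusted p = 0.00168). Lyz2 was at 56.5, 49.6 and 40.6 CPM against 2659, 1174 and 331 CPM (-4.83 ± 0.85, adjusted p = 0.00297). Trem2 was at 2.92, 1.72 and 0.932 CPM against 94.2, 36.3 and 19.1 CPM (-4.75 ± 1.11, adjusted p = 0.0113). Even the lowest control library lay above the highest hydrogel library in all 10 genes, as it did, in either direction, in 43.7% of all genes.

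The other members at day 14 ranged from -4.37 ± 0.81 for Itgam to -2.67 ± 0.53 for Cx3cr1. Cd68 was at 7.34, 5.68 and 5.46 CPM against 148, 82.2 and 45.3 CPM and had the smallest adjusted p of the 10, 0.00069. Ccr2 was at 4.62, 3.37 and 3.83 CPM against 48.0, 19.1 and 8.70 CPM (-2.68 ± 0.69, adjusted p = 0.0181). With only the day 14 groups in the fit 5 of the 10 passed, with adjusted p-values from 0.0338 to 0.068. Leaving out control replicate 1 of days 1 and 14 together left all 10 lower, with smaller differences, such as -1.83 for Ccr2 and -2.18 for Csf1r.

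**Figure D2:**
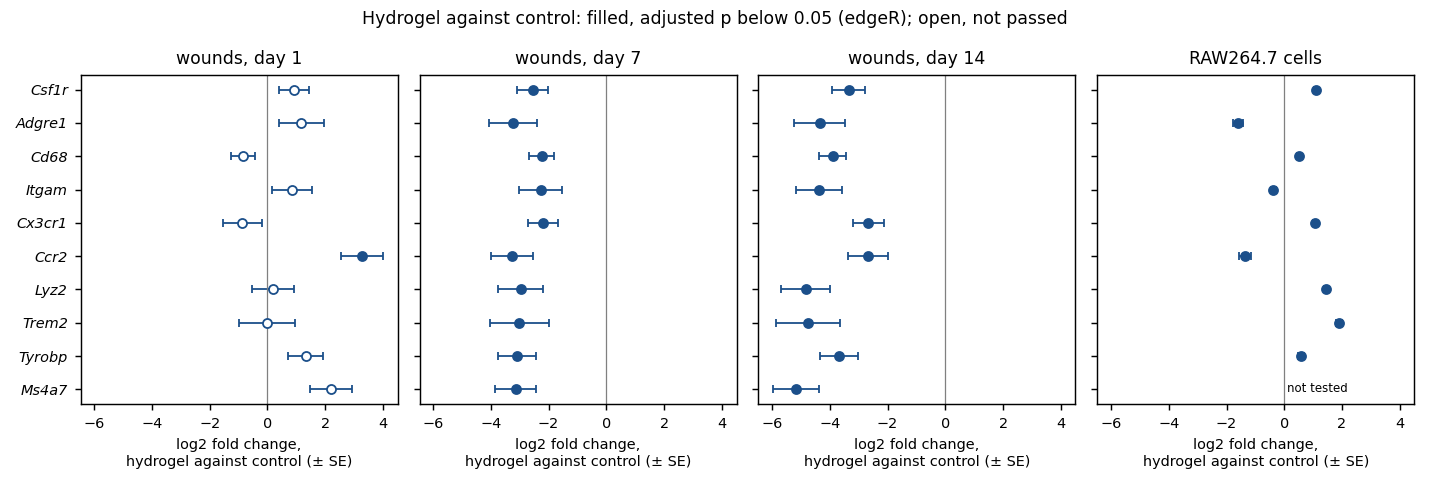
Log2 fold change of each gene, hydrogel against control, with its SE (n = 3 against 3), in wounds at days 1, 7 and 14 and in RAW264.7 cells; filled points passed at an adjusted p below 0.05 in edgeR, open points did not. At days 7 and 14 all 10 genes lie below 0, at day 1 only Ccr2 passes, and in RAW264.7 6 genes lie above and 3 below 0.

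Within hydrogel wounds the course ran downwards for most members. From day 1 to day 14, 8 of the 10 fell, against 26.1% of all genes tested: Itgam by 4.65 (from 26.5, 60.3 and 19.7 CPM to 1.303, 1.40 and 1.52 CPM), Cd68 by 4.08, Adgre1 by 3.77, Ms4a7 by 3.45, Tyrobp by 2.86, Ccr2 by 2.80, Lyz2 by 2.35 and Csf1r by 1.68 on the log2 scale. Trem2 (-2.28 ± 1.02, adjusted p = 0.0772) and Cx3cr1 (1.19 ± 0.63, adjusted p = 0.127) did not pass. From day 1 to day 7, Itgam, Ccr2 and Cd68 fell by 2.48, 2.36 and 2.11, against 10.5% of all genes. Cx3cr1 was the exception and rose, from 0.172, 0.0526 and 0.414 CPM to 1.08, 1.40 and 1.27 CPM (2.49 ± 0.62, adjusted p = 0.015), while 7.76% of all genes rose. Its day 1 values rest on 2, 1 and 8 read pairs. With the day 7 libraries summed, neither this rise nor the 3 falls passed, and without a filter on low counts 2 of these 4 calls were left. Between days 14 and 7, Cd68 fell by 1.98 and Ms4a7 by 2.85, the only 2 of 10 to pass, against 9.60% of all genes lower; with only the hydrogel groups of those days in the fit all 10 passed.

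The hydrogel difference itself changed over the 3 days in 8 of the 10 genes, by a joint test of its day 1, 7 and 14 values (15.8% of all genes tested passed). The smallest adjusted p-values were those of Ms4a7 (0.00207) and Ccr2 (0.00216). Cx3cr1 (0.295), whose fitted difference was below 0 on every day, and Trem2 (0.0718) did not pass. With the day 7 libraries summed none of the 10 passed.

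How far the genes kept in step was read from the level of each gene relative to the mean log2 level of the other 9, a measure from which a change shared by all of them drops out. At day 7, where all 10 were lower, the relative levels shifted between hydrogel and control by -0.51 (Ccr2) to 0.75 (Cx3cr1), a span of 1.26 on the log2 scale beside the shared median of -2.99. In 8 of the 10 genes the groups' relative levels did not overlap, while the plain levels of 70.2% of all genes did not overlap at that day. At day 14 the span was 2.65. Cx3cr1 (1.40), Ccr2 (1.38) and Csf1r (0.80) were less reduced than the other members, and Ms4a7 (-1.24), Trem2 (-1.03) and Lyz2 (-0.91) more, each with groups that did not overlap. At day 1 the span was 5.03, from Cd68 (-2.35, groups overlapping) to Ccr2 (2.69, not overlapping). In RAW264.7, where the tissue makeup cannot change, the span was 3.96 over 9 genes, from Adgre1 (-2.25) to Trem2 (1.71). These shifts describe unequal change and were given no test. For relative levels no share over all genes is given, so non-overlap here does not set these genes apart.

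**Figure D3:**
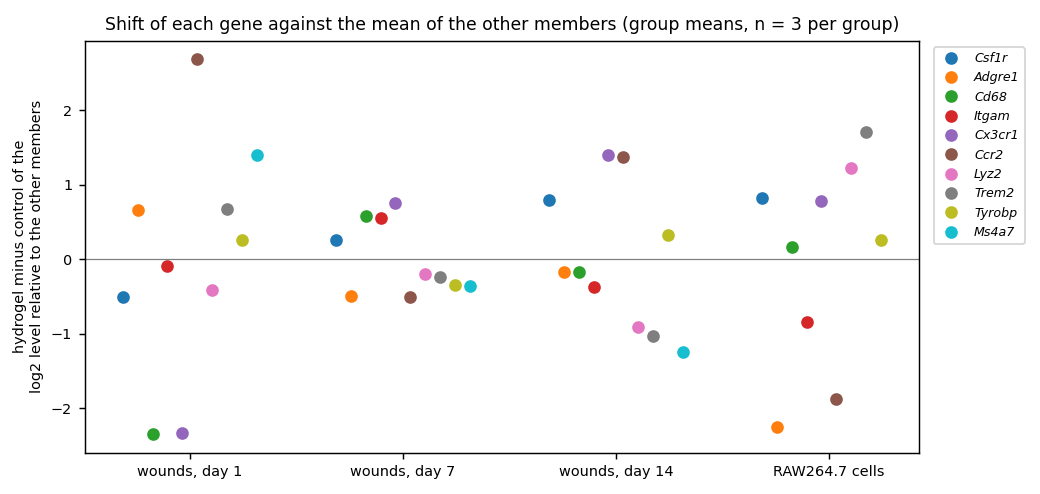
Shift between hydrogel and control of each gene's log2 level relative to the mean of the other members, from group means of 3 libraries, in wounds at 3 days and in RAW264.7 cells. The points lie closest together in wounds at day 7 (from -0.51 to 0.75) and spread most in wounds at day 1 (from -2.35 to 2.69).

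Of 10 genes for ligands and partners of these receptors, 1 rose and 1 fell at day 7 (median -1.23), shares near those over all genes, of which 9.86% were higher and 11.7% lower. Cx3cl1, which encodes fractalkine, was at 16.4, 15.3 and 16.2 CPM with hydrogel against 6.69, 7.45 and 6.49 CPM (1.21 ± 0.39, adjusted p = 0.037), opposite to its receptor gene Cx3cr1. Syk, the kinase downstream of TYROBP, was at 14.0, 12.9 and 14.4 CPM against 49.4, 52.7 and 45.7 CPM (-1.84 ± 0.36, adjusted p = 0.0042). The CSF1R ligands did not pass, Csf1 at -1.11 ± 0.41 (adjusted p = 0.065) and Il34 at -0.21 ± 0.35 (0.69), nor did Ccl2, the main CCR2 ligand, at -0.25 ± 0.67 (0.82).

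At day 14, 6 of the same 10 fell (median -1.93): Csf1 (-2.11 ± 0.42), Il34 (-1.75 ± 0.35), the CCR2 ligand genes Ccl7 (-2.44 ± 0.77) and Ccl12 (-2.76 ± 0.89), the integrin partner of ITGAM Itgb2 (-3.77 ± 0.70), and Hcst (-2.49 ± 0.75), an adaptor related to TYROBP. The share of all genes tested that fell at day 14 was 10.3%. At day 1 none of the 10 passed (median 0.63). Ccl2 stood there at 20.1, 16.6 and 19.0 CPM with hydrogel against 54.4, 5.53 and 7.86 CPM, again with control replicate 1 highest.

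Among 10 transcription factor genes of the myeloid lineage, Spi1, which encodes PU.1, fell with the members. It was at 16.0, 17.4 and 15.03 CPM against 61.7, 61.4 and 67.0 CPM at day 7 (-1.97 ± 0.59, adjusted p = 0.027) and changed by -3.24 ± 0.62 at day 14 (0.0041). Irf8, a monocyte factor, fell at both days (-1.72 ± 0.47 and -2.35 ± 0.48), and Tfec at day 14 (-3.60 ± 0.83). Cebpb, which other cells also use, rose at day 7 (1.82 ± 0.28). Maf, a macrophage factor that is likewise made by other cells, rose at day 1 (1.71 ± 0.33, adjusted p = 0.0095). The 10 factors had medians of 0.17, -0.53 and -0.79 at days 1, 7 and 14.

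Of 18 tested relatives of the members by gene family, 3 rose at day 1, 10 fell at day 7, and at day 14 14 fell and Kit rose. The risers at day 1 included Ms4a4c (3.76 ± 0.71) and Trem1, a receptor that pairs with TYROBP on neutrophils and monocytes (3.34 ± 0.76). Trem1 stood at 11.3, 13.9 and 3.78 CPM with hydrogel against 1.43, 0.531 and 0.887 CPM. At day 7 Ms4a4c was the other way round, at 1.08, 0.952 and 1.002 CPM with hydrogel against 38.2, 41.7 and 42.7 CPM (-5.33 ± 0.75). The relatives' medians were 1.25, -1.92 and -3.61. Of all genes tested, 4.53% rose at day 1, 11.7% fell at day 7 and 10.3% fell at day 14.

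Markers of blood monocytes and of tissue macrophages passed in part. Shares over all genes tested were 4.53% higher at day 1, 11.7% lower at day 7 and 10.3% lower at day 14. Of 9 blood monocyte genes, 2 rose at day 1 (Chil3 among them), 3 fell at day 7 (F13a1, Vcan and Ly6c2) and 6 fell at day 14. Vcan was not lower at day 14, at 209, 195 and 186 CPM with hydrogel against 150, 125 and 196 CPM. Of 9 tissue macrophage genes, 3 rose at day 1 (Stab1, Gas6 and Lyve1), 5 fell at day 7 (Stab1, Timd4, Folr2, Lyve1 and Mrc1) and 7 at day 14. Cd163, a scavenger receptor gene, was at 38.3, 30.6 and 36.2 CPM with hydrogel at day 7 against 160, 161 and 152 CPM (-2.17, adjusted p = 0.056), and at 3.71, 3.96 and 4.73 CPM against 194, 22.4 and 9.48 CPM at day 14 (-4.18, adjusted p = 0.0055).

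The difference was not confined to macrophage genes. Of all genes tested, 9.86% rose and 11.7% fell at day 7, and 10.3% fell at day 14. At day 1, 7.55% passed in either direction and 4.53% were higher. Of 8 genes shared by all leukocytes, 6 fell at day 7 and 6 at day 14, and Ptprc (CD45) changed by -2.30 and -2.64. Fibroblast markers fell in 7 of 7 genes at both days, with summed levels of 1447 to 1680 CPM with hydrogel against 10301 to 10436 CPM at day 7. Adipocyte genes fell in 7 of 7 at day 7 (965 to 1161 against 23434 to 24132 CPM). Basal keratinocyte genes rose in 5 of 6 at day 7, Krt5, Krt14, Krt15, Trp63 and Col17a1 (7427 to 7507 against 666 to 674 CPM), and of 8 skeletal muscle genes 1 did, Ckm (93081 to 107585 against 29691 to 30153 CPM). T and NK cell genes fell in 3 of 8 at day 7, Cd4, Ncr1 and Cd2, with summed levels of 8.15 to 12.04 against 16.3 to 18.7 CPM. The T cell receptor complex genes did not fall with them. Cd3g stood at 2.73, 4.37 and 2.81 CPM with hydrogel against 1.49, 1.35 and 1.19 CPM. Cd3e stood at 0.502, 0.896 and 0.601 against 0.372, 0.203 and 0.209 CPM, and the groups overlapped in Cd3d and Trac. Endothelial genes fell in 5 of 6 at day 7, Pecam1, Kdr (-2.44), Tek, Cldn5 (-2.89) and Emcn (232 to 241 against 888 to 904 CPM), and in 3 of 6 at day 14, Tek, Cldn5 and Emcn. Red blood cell genes fell in 5 of 5 tested at day 7 (109.5 to 139 against 1105 to 1135 CPM), with the globin gene Hba-a1 at -3.06. They were lower already at day 1, when Ccr2 was higher, in 4 of 5, Hba-a1 (-2.99), Hbb-bs, Hbb-bt and Alas2 (137 to 283 against 686 to 3202 CPM). The part of this tissue makeup in the member differences was not tested.

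Neutrophils carry Itgam, Tyrobp and Trem1 as well. At day 1, 2 of 6 tested neutrophil genes rose with hydrogel, Csf3r (3.42) and S100a9 (2.72), and the summed level of the 10 listed genes was 921, 916 and 180 CPM against 128, 203 and 204 CPM. Hydrogel replicate 3 lay within the range of the controls, and in it Ccr2 was also lowest of its group. At day 7 none of the 6 passed (86.0 to 121 against 102 to 106 CPM), and at day 14 4 fell (Csf3r, Cxcr2, Retnlg and Mmp8). The shares over all genes tested were 4.53% higher at day 1 and 10.3% lower at day 14. The part of neutrophils in the day 1 result was not tested.

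**Figure D4:**
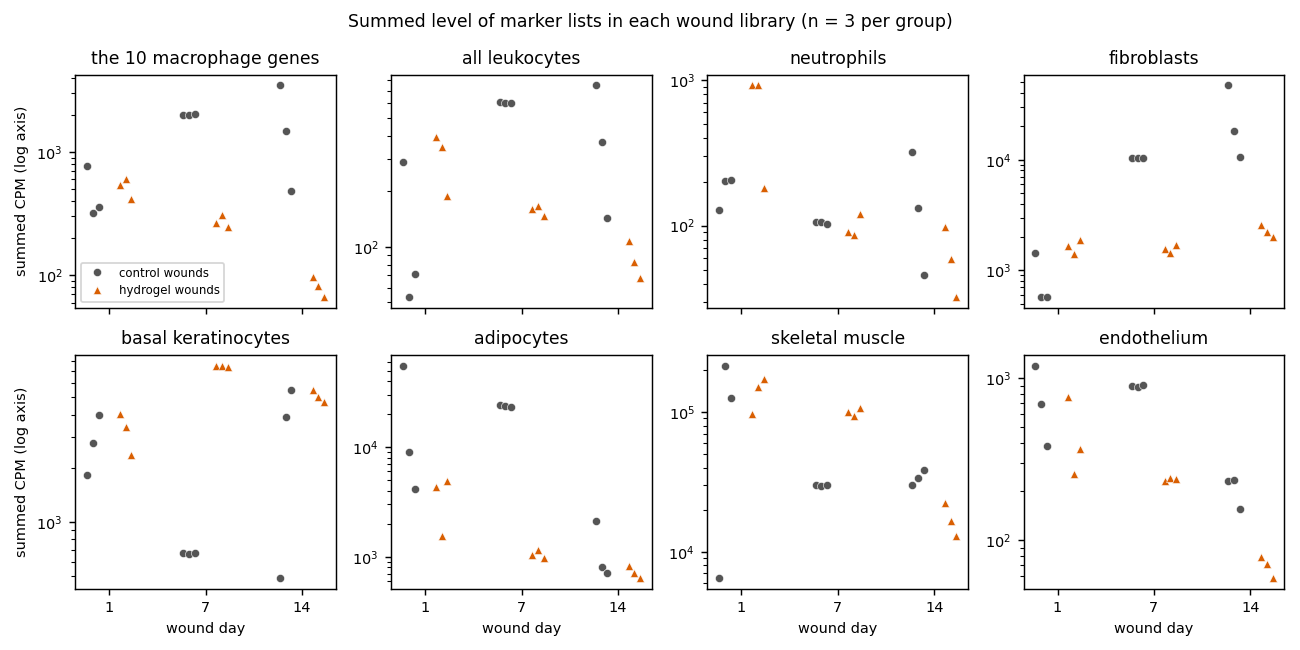
Summed level of the 10 macrophage genes and of 7 lists of cell type markers in each wound library, in CPM on a log axis, for control (grey circles) and hydrogel wounds (orange triangles), 3 libraries per group. The macrophage, leukocyte and fibroblast sums are lower with hydrogel at days 7 and 14, and the keratinocyte sum is higher at day 7.

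In RAW264.7 cells, 9 of the 10 genes were tested and all 9 differed between the groups, but so did 72.5% of all genes tested, 34.7% higher and 37.8% lower. Lyz2, Cd68 and Tyrobp were the first 3 of the 10 by TPM in the line, as they were in every wound group. Rank within a list of macrophage genes cannot show what the line is. The line lacked Ms4a7 and the blood monocyte genes Chil3, F13a1 and Ace, which were at 0 in all 6 libraries, and the tissue macrophage genes Cd163 and Timd4, likewise at 0. Of the markers of other cell types, Krt5, Krt14, Col3a1, Pdgfra, Cd3e and Acta1 were also at 0, but other genes of those lists were not. From the adipocyte list, Lpl stood at 612 to 638 CPM with hydrogel and 713 to 744 CPM without, and Fabp4 at 147 to 251 and 247 to 249.8 CPM. Itga6 of the keratinocyte list had means of 1.74 and 3.01 CPM, and Pecam1 of the endothelial list 0.493 and 1.25 CPM.

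The signalling genes were higher in hydrogel-treated cells. Trem2 stood at 100, 87.0 and 75.3 CPM against 23.7, 24.2 and 23.1 CPM (log2 1.88 ± 0.10, adjusted p = 1.29e-07), and Tyrobp at 348, 318 and 264.98 CPM against 198, 213 and 210 CPM (0.58 ± 0.09). Lyz2 was at 2032, 2388 and 2436 CPM against 823, 844 and 858 CPM (1.44 ± 0.08), with Lyz1 at 0.61 ± 0.09. Csf1r was at 956, 945 and 888 CPM against 440, 437 and 440 CPM (1.08 ± 0.06), Cx3cr1 at 75.7, 78.5 and 80.4 CPM against 38.3, 36.5 and 38.8 CPM (1.05 ± 0.06), and Cd68 at 1062, 1064 and 1043 CPM against 742, 727 and 780 CPM (0.50 ± 0.06). These 6 genes had every treated library above every control.

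Adgre1, Ccr2 and Itgam were lower in treated cells. Adgre1 was at 24.4, 36.2 and 43.9 CPM against 109, 105 and 106 CPM (-1.60 ± 0.16), Ccr2 at 2.35, 1.54 and 1.22 CPM against 4.76, 4.49 and 3.57 CPM (-1.36 ± 0.22), and Itgam at 96.5, 112 and 125 CPM against 143, 148 and 145 CPM (-0.39 ± 0.09, adjusted p = 0.00194). All 9 genes had groups without overlap, as had 75.9% of all genes. The control libraries differed by little more than counting error (median chi-square 0.506 to 0.607).

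In the cells, 6 of 9 tested ligand and partner genes passed, a share near the 72.5% over all genes. Of these, 2 were higher, Plcg2 (0.46 ± 0.06) and Hcst (0.41 ± 0.17), and 4 lower, Csf1 (-1.11 ± 0.10), Ccl12 (-1.09 ± 0.24), Ccl2 (-0.71 ± 0.10) and Syk (-0.29 ± 0.09). Spi1 was higher, at 351, 321 and 274 CPM against 199, 194 and 202 CPM (0.67 ± 0.08), as were Cebpa and Runx1. Of 15 tested family relatives 9 were lower and 2 higher, where 37.8% and 34.7% of all genes were, with Ms4a6b at -2.22 ± 0.14 and Ms4a6c at -2.10 ± 0.14. Of 8 leukocyte genes, Laptm5, Coro1a, Arhgdib and Cd52 were higher and Ptprc, Cd53, Cd48 and Lcp1 lower, with Ptprc at 139, 119 and 119 CPM against 381, 371 and 365 CPM.

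So Csf1r, Cd68, Cx3cr1, Lyz2, Trem2 and Tyrobp were lower in hydrogel wounds at days 7 and 14 and higher in hydrogel-treated cells, and Adgre1, Ccr2 and Itgam were lower in all 3 comparisons. The labels name LPS only for the control cells, while the design text puts it in both arms. A difference in LPS can therefore not be told apart from the gel in the cells. The wound and cell libraries were scaled separately, and the difference between the changes in wounds and in cells was not tested. The 10 genes together took 0.467% to 0.493% of all counts in treated cells and 0.254% to 0.262% in control cells. In wounds they took 0.211% to 0.219% in controls at day 7 and 0.0248% to 0.0318% with hydrogel, and 0.0602% to 0.346% against 0.00863% to 0.0123% at day 14.

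Set beside the cell line per exon length, wound tissue did not hold the genes in the line's proportions. Taking each gene's mean TPM in RAW264.7 controls as 100%, control wounds at day 7 held 12.6% ± 1.1 of Cx3cr1, 12.8% ± 1.1 of Cd68 and 17.6% ± 1.1 of Itgam (SD, n = 3), 37.3% ± 3.0 of Csf1r, 39.7% ± 4.6 of Tyrobp and 40.1% ± 4.3 of Adgre1. They held 134% ± 9.9 of Lyz2, 230% ± 13 of Trem2 and 1006% ± 96 of Ccr2. Hydrogel wounds at day 7 held between 2.57% ± 0.73 (Cd68) and 27.1% ± 4.6 (Trem2) of 8 of these genes, and 99.2% ± 15 of Ccr2. The label of the reference cells names LPS, and their Ccr2 level was low, at 1.82 TPM. The SDs cover the wound libraries only and not the spread of the reference. Ms4a7 has no such ratio, being near 0 in the line, and stood at 22.9, 26.2 and 25.9 TPM in control wounds at day 7 and at 2.42, 2.63 and 3.06 TPM with hydrogel.

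**Figure D5:**
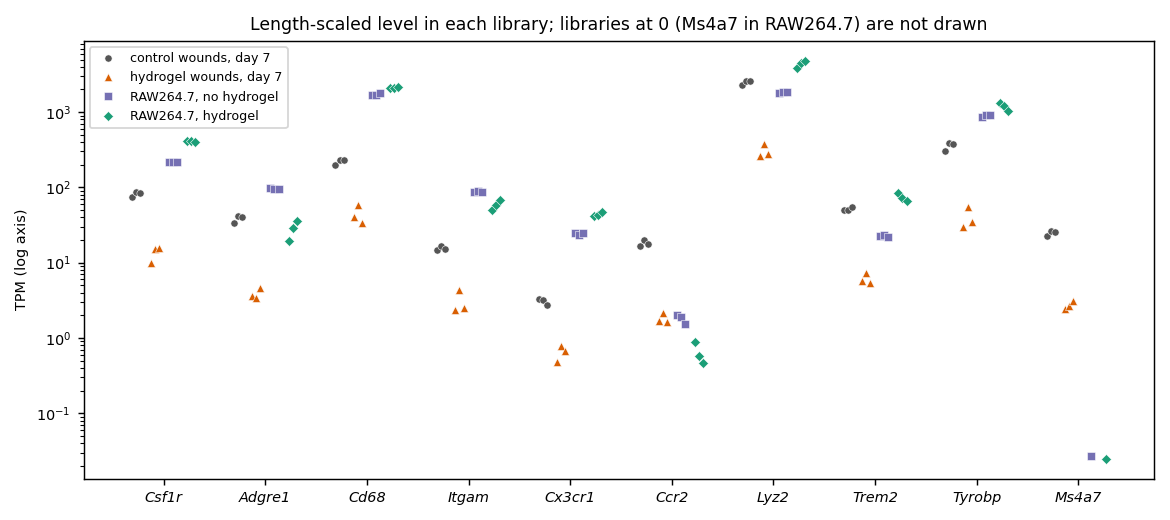
Level per exon length (TPM, log axis) of each gene in the 3 libraries of control and hydrogel wounds at day 7 and of RAW264.7 cells without and with hydrogel; libraries at 0 are not drawn. Cd68, Tyrobp and Cx3cr1 are higher in the cells than in the wounds, while Ccr2 and Ms4a7 are lower in them than in control wounds.

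By TPM, Lyz2 led the 10 genes in all 8 groups and Cx3cr1 was last in all 6 wound groups. In control wounds at day 7 the order was Lyz2 (2471 TPM), Tyrobp (356), Cd68 (219), Csf1r (81.8), Trem2 (51.9), Adgre1 (38.8), Ms4a7 (24.98), Ccr2 (18.3), Itgam (15.5) and Cx3cr1 (3.06), and no neighbours in that order overlapped. In hydrogel wounds at day 7 Cd68 (44.1) and Tyrobp (40.2) overlapped, as did Adgre1, Itgam and Ms4a7 (3.88 to 2.70). By group in CPM, control day 7 was the highest for 7 of the 10 genes, and hydrogel day 14 the lowest for 8, all but Cx3cr1, lowest in hydrogel wounds at day 1, and Ccr2, lowest in control wounds at day 1.

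Over the 18 wound libraries, Adgre1 and Tyrobp were the most alike of the 45 pairs (root mean square difference 0.527 on centred log2 CPM) and Cd68 and Trem2 the least (2.33). Among 11517 other genes with a mean of at least 5 CPM, the 10 closest to the members' mean were Evi2a (0.318), P2ry6 (0.339), Cd300a, Fcer1g, Nckap1l, Fcgr2b, Il10ra, Ms4a6b, Ptafr and Igsf6 (0.396), while the median over all genes was 1.74. With a minimum of 20 CPM, 3 of these 10 were left: Fcer1g, Nckap1l and Fcgr2b. The others had means below 20 CPM and were removed by that minimum, so it is no check of the ranking.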

How the data were processed

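Wound and RAW264.7 mRNA libraries were grouped by their titles. The authors deposited raw counts of read pairs per gene symbol. Per the submitters' processing notes they used Trim Galore 0.6.10, FastQC 0.11.9, HISAT2 2.2.1 (mm10), SAMtools 1.9 and featureCounts 2.0.6; per the file headers, exons of GENCODE vM25 were counted without strand, and pairs mapping to several genes were left out. Genes were kept with edgeR 4.0.16 (filterByExpr, minimum count 10, minimum total 15), leaving 17592 in wounds and 12972 in cells, and scaled by TMM. The quasi-likelihood F test ran on all 18 wound libraries (12 residual degrees of freedom) and on 6 cell libraries (4), with Benjamini-Hochberg adjustment over all genes and a threshold of 0.05. Logarithms used a prior count of 2. Simulated counts with 200 known changes served as a check. The members and 16 further gene lists were chosen with earlier results of these data known. Named were all members, all ligand and partner genes, and otherwise up to 4 passed genes per list by adjusted p, or up to 3 defining markers. Cd163, genes at 0 in RAW264.7 and the members of counts of 5 or fewer were named after their values were seen. Alternatives were RLE scaling, other filters, DESeq2 1.42.0, limma-voom (limma 3.58.1), only the compared groups, a replicate block, summed day 7 libraries and left-out libraries. Some genes of the surrounding lists enter the counts and medians but are not reported here by name.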

Additional observations from a re-analysis of the deposited data

Results flagged for a closer look

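The difference between hydrogel and control wounds changed over days 1, 7 and 14 in 8 of the 10 genes, by the joint edgeR test adjusted over all genes. The adjusted p was 0.00207 for Ms4a7, 0.00216 for Ccr2, 0.00457 for Tyrobp, 0.00482 for Csf1r, 0.0101 for Cd68, 0.0113 for Adgre1, 0.0116 for Itgam and 0.0156 for Lyz2. In day order, the log2 differences of Ccr2 were 3.28, -3.27 and -2.68, and those of Ms4a7 were 2.2, -3.14 and -5.17. Those of Cd68 were -0.86, which did not pass at day 1 (adjusted p = 0.2, groups overlapping), -2.25 and -3.90. The cause of these changes was not tested.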

How the results depend on the processing

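Counts of the 10 genes that passed changed with the alternatives in 10 of the 11 comparisons. The cause was not tested. Shares over all genes are given above for the main fit only, so counts under the alternatives have no such share beside them. Hydrogel against control at day 1 gave 1, and 0 without a filter, 2 with DESeq2, 8 with limma-voom, 0 with only the compared groups, 2 with the replicate block, 0 with the day 7 libraries summed and 9 without replicate 1 of the day 1 and day 14 controls. Leaving out each library in turn gave 1 to 8 at day 1 (8 without control replicate 1), 6 to 8 at day 7 and 8 to 10 at day 14. At day 7 the summed libraries gave 0 of 10, and at day 14 only the compared groups gave 5. In controls, day 7 against day 1 gave 5 with only the compared groups, 0 with the summed libraries and 5 to 10 with 1 library out, and day 14 against day 1 gave 0 with only the compared groups and 4 to 10. Day 14 against day 7 gave 9 with limma-voom, 9 without the 2 control libraries and 0 to 4. In hydrogel wounds, day 7 against day 1 gave 2 without a filter, 0 with summed libraries and 1 to 4. Day 14 against day 1 gave 6 to 9. Day 14 against day 7 gave 6 with DESeq2, 10 with limma-voom, 10 with only the compared groups, 6 with the replicate block, 0 with summed libraries and 1 to 2. The change over days gave 0 with summed libraries and 8 to 9, and RAW264.7 gave 9 throughout.

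The deviations of same-numbered libraries from their group means had correlations from -0.10 to 0.37. All 3 were positive in some comparisons, such as hydrogel against control at day 1 (0.37, 0.26 and 0.091). In none of the 10 comparisons were all 3 above 0.1, so the replicate numbers were not taken as pairs. The replicate block raised the counts of hydrogel against control at day 1 and of hydrogel day 14 against day 7, as given above. No other count left 1.5 times its value under the block.

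Signs turned in 18 cases, all for differences that had not passed. Trem2 at day 1 (-0.01) was 3.35 with limma-voom, 0.83 with the replicate block, 4.02 without the 2 control libraries and -0.57 to 4.02 with 1 library out, highest without control replicate 1. Lyz2 at day 1 (0.20) ranged from -0.26 to 2.10 with 1 library out. In controls, day 14 against day 1, Itgam (0.56) ranged from -0.44 to 2.13. For day 14 against day 7, Itgam ranged from -1.08 to 0.33, Cd68 from -0.85 to 0.0041 and Lyz2 (0.03) from -0.85 to 0.50, and Lyz2 was -0.61 with limma-voom, -0.35 with the replicate block and -0.85 without the 2 control libraries. Trem2 in hydrogel wounds, day 7 against day 1 (-0.15), was 0.20 with limma-voom and ranged from -0.33 to 0.094. The cause was not tested. The alternatives with summed day 7 libraries and without 2 control libraries came from earlier results on these data. Depth limits Cx3cr1, counted 1 to 8 times per library in hydrogel wounds at day 1, and Ms4a7 in RAW264.7. It also limits control wounds at day 1, with 100, 10 and 14 read pairs of Ccr2 and 60, 9 and 7 of Ms4a7. Trem2 had 384, 6 and 10 there, and Cx3cr1 4, 3 and 11. In hydrogel wounds at day 14, Ms4a7 had 30, 18 and 13.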
